A study of Mus musculus with 24 samples.

Results

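Interferon-stimulated genes are genes whose transcripts rise when a cell senses an interferon, a cytokine released during infection. The set described here holds 42 such genes, picked by symbol from the 24421 genes in the count tables, and all 42 had reads in every one of the 24 libraries. Their levels were followed in common lymphoid progenitors (CLPs, sorted as Lin-IL-7R+) and in B cell progenitors (sorted as B220+IgM-IL-7R+) of mouse bone marrow (BM). Each population came from 3 mice of each of 4 genotypes, and both populations of a mouse were sequenced. In wild-type (WT) mice both genes for the signaling enzyme phospholipase Cγ were intact, Plcg1+/+ with Plcg2+/+. PLCγ1-deficient mice are labelled Plcg1-/- with Plcg2+/+, PLCγ2-deficient mice Plcg1+/+ with Plcg2-/-, and double-deficient mice lacked both by label.

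A limit of the model bears directly on these genes and is common to all 4 genotypes. The floxed Plcg1 alleles were deleted by a Cre recombinase under the Mx promoter, which interferon switches on, and the donors, WT ones included, received 3 injections of polyI:C, an RNA mimic that provokes interferon release. Donors were injected at 6 to 12 weeks of age, and their BM was moved 3 weeks later into irradiated CD45.1+ hosts, from which the donor cells were sorted after a further 6 to 8 weeks. The number of donors per genotype is not stated, so the spread between the 3 mice of a group may be that between recipients of the same donor. The mice were of mixed 129 and C57BL/6 background, and both sexes were used.

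The CLP libraries held between 4232345 and 33219995 reads assigned to genes, and the B cell progenitor libraries between 1479582 and 25057223. Plcg2, whose transcripts the Plcg2 label should lower, lay between 183 and 282 CPM (counts scaled to sequencing depth) in the 12 libraries labelled Plcg2+/+ and between 72.1 and 138 CPM in the 12 labelled Plcg2-/-, without overlap. Plcg1 did not follow its label. It stood at 56.1, 185 and 139 CPM in double-deficient B cell progenitors against 111, 86.2 and 81.2 CPM in WT, and the count sums reads over the whole gene, the part left after deletion included, so that it does not check the Plcg1 label. The libraries labelled Plcg1-/- also differed from the others in sex-linked transcripts, with Xist between 1294 and 2314 CPM against 23.6 to 743 CPM, so sex and Plcg1 genotype cannot be told apart. Markers of the B lineage were present in both populations. Cd79a, a subunit of the B cell receptor complex, lay between 107 and 1183 CPM in CLP libraries and between 270.1 and 955 CPM in B cell progenitor libraries, and whether this is RNA of the CLPs themselves or of other cells was not tested.

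Type I interferons bind the receptor made of IFNAR1 and IFNAR2, whose kinases JAK1 and TYK2 phosphorylate transcription factors, STAT2 among them. A complex of STAT2 with IRF9 enters the nucleus and binds the interferon-stimulated response element (ISRE), while interferon-γ acts through a gamma-activated site (GAS). The genes switched on include nucleic acid sensors, enzymes that degrade or modify viral RNA, GTPases, and proteins that damp the response. Many of them also keep a low level in the absence of infection.

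The ISRE was looked for, as the letters GAAA, any 2 bases and GAAA again, or on the other strand TTTC, any 2 bases and TTTC, in RefSeq promoters of build GRCm38.p6, each running from 250 bases before to 50 bases after a start site. Of the 42 genes, 32 had a promoter entry, and 16 of those held the motif, against 3.99% of all 27025 genes with a promoter. No promoter entry was given for Oas2, Mx1, Mx2, Rtp4, Usp18, Zbp1, Parp14, Ifi27l2a, Dhx58 and Parp9. The GAS, written TTCNNNGAA and the same on both strands, was found in 10 of the 32, or 31.3%, against 9.55% of all genes. The motifs can overlap in a promoter, and a match is a description of the sequence only. Eif2ak2, Oas1a, Oas3, Ifit1, Gbp2, Gbp3, Irgm1, Igtp, Bst2 and Trim30a held the ISRE, and their double-deficient B cell progenitors lay above WT without overlap. Isg15, Stat2, Rsad2, Ifit3, Ifih1 and Ddx58 held it, yet these groups overlapped. Tap1, Ifi35, Ifi47, Xaf1 and Oasl2 lay above WT there without overlap and lacked it. The other members with a promoter entry lacked it and overlapped. Whether the motif goes with the level was not tested. The 60-base windows below are examples from members whose double-deficient B cell progenitors lay above WT without overlap. Gbp3, Irgm1 and Igtp also qualified and are not shown, and Eif2ak2 held no ISRE wholly before the start site. Each window ends at or before the start site that the promoter entry uses, with the ISRE in capitals.
Trim30a: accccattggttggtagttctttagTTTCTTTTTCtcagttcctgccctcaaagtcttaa
Oas1a: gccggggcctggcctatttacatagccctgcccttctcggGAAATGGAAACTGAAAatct
Bst2: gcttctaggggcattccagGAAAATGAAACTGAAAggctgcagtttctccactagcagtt
Oas3: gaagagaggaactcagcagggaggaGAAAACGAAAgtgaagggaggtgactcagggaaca
Gbp2: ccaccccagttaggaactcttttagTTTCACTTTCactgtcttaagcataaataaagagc
Ifit1: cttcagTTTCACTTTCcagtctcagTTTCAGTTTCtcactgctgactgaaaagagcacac
They lie at chr7:104465195-104465254 on the minus strand for Trim30a, at chr5:120907526-120907585 minus for Oas1a, and at chr8:71537562-71537621 minus for Bst2. The others are chr5:120777700-120777759 minus for Oas3, chr3:142620579-142620638 plus for Gbp2 and chr19:34640779-34640838 plus for Ifit1. The Oas1a and Bst2 windows each hold overlapping copies of the motif, which gives a longer run of capitals, and the Ifit1 window holds 2 separate copies.

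Members differed widely in level. Per kilobase of exon, Ifi27l2a had the highest median level in B cell progenitors, 124 CPM per kb, ahead of Bst2 (tetherin, which holds budding virus at the cell surface) with 107 and Tap1 (a subunit of the peptide transporter for MHC class I) with 76.5 CPM per kb. In CLPs the order of the top 3 was Bst2 with 196, Tap1 with 96.9 and Ifi27l2a with 86.1 CPM per kb. At the other end were the antiviral RNA-binding proteins Ifit1, 1.05 CPM per kb in B cell progenitors, and Ifit3, 1.40 CPM per kb, with as few as 1 and 2 reads in a library. Isg15 (a ubiquitin-like modifier), Mx1, Mx2 and Rsad2 (viperin, which makes a chain-terminating nucleotide) were also low, between 2.21 and 6.09 CPM per kb in B cell progenitors. The files' Mx1 and Mx2 are annotated as transcribed pseudogenes in the C57BL/6J reference. In all, 37 of the 42 had at least 10 reads in every library.

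Double-deficient B cell progenitors were compared with WT ones first. No member was called changed, while 40 of the 42 had a higher fitted level in double-deficient cells, against 48.2% of all genes, with a median log2 fold change of 0.53 against -0.02 over all 15001 genes tested. A gene counted as called when its p in edgeR's quasi-likelihood test, adjusted after Benjamini and Hochberg, did not exceed 0.05 and its log2 fold change was 0.5 or more in either direction. That rule called 134 of the 15001 genes, or 0.893%, and 0 of the 42 members. DESeq2 on the same libraries called 5 members, Trim30a, Oas1a, Usp18, Rtp4 and Bst2, all higher, and 2.96% of all genes. At an unadjusted edgeR p of at most 0.05, 19 members were higher and 0 lower, whereas 5.71% of all genes tested were higher and 6.56% lower. In 19 members every double-deficient library lay above every WT library, which held for 9.03% of all genes tested, and in 0 members did every library lie below, against 10.2%. The 2 members with a lower fitted level were Ifi27l2a and Samhd1. The plot of fold changes shows both populations for all 42 genes.

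**Figure D1:**
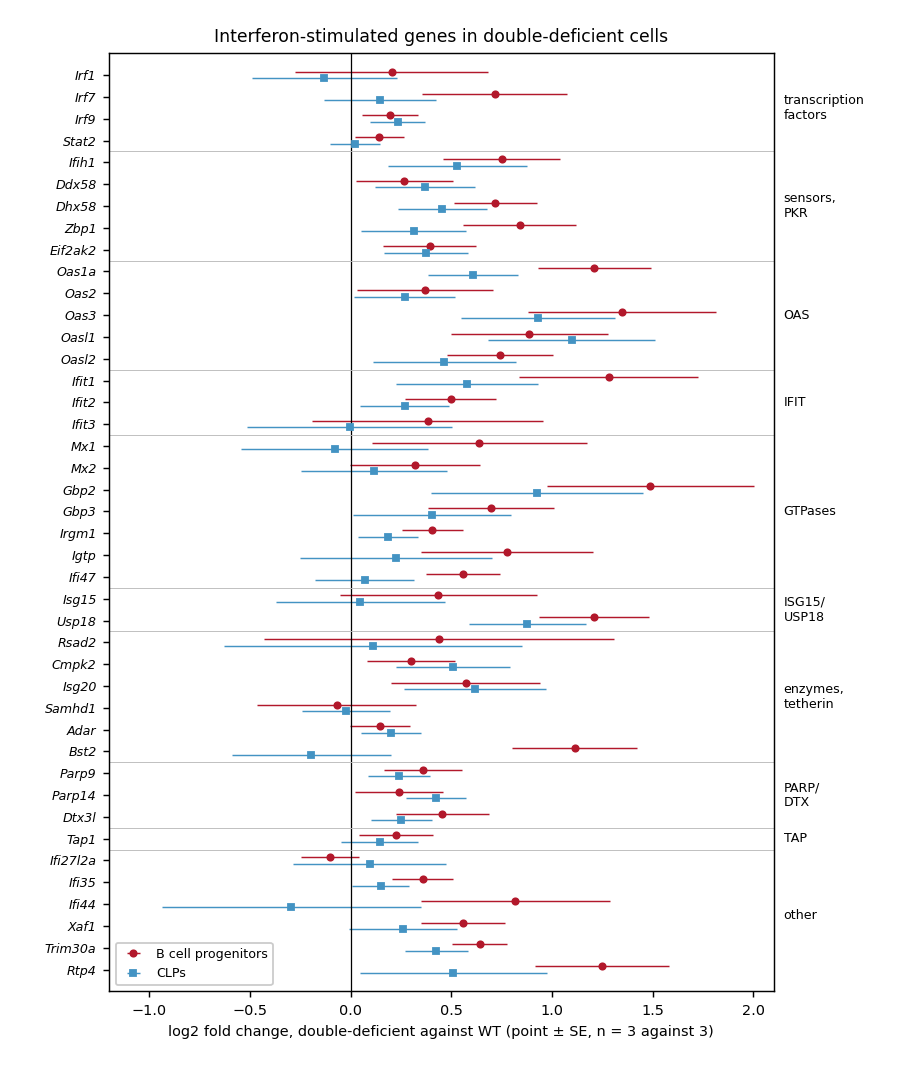
Each point is the log2 fold change of 1 member in double-deficient against WT cells (horizontal axis) with its SE, 3 libraries against 3, in B cell progenitors (circles) and CLPs (squares), and rows are ordered by role. In B cell progenitors 40 of 42 points and in CLPs 36 of 42 lie right of 0, and none passed the threshold of edgeR's test.

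The lowest adjusted p belonged to Trim30a, a TRIM-family protein known to restrain Toll-like receptor signaling, encoded at chr7:104409025-104465193. Its level was 183, 234 and 212 CPM in the 3 double-deficient libraries and 128, 131 and 145 CPM in WT. The groups did not overlap, and the log2 fold change was 0.64 (SE 0.14, edgeR adjusted p = 0.0527). Usp18, the protease that strips ISG15 from proteins and also holds back the interferon receptor, is encoded at chr6:121245906-121270917. It stood at 16.7, 21.2 and 19.6 CPM against 8.56, 6.01 and 10.3 CPM, with a log2 fold change of 1.21 (SE 0.27, edgeR adjusted p = 0.0685). Its 3 double-deficient libraries were also above every PLCγ1- and PLCγ2-deficient library, the highest of which reached 16.1 and 13.3 CPM. Oas1a makes the second messenger that activates RNase L and lies at chr5:120896256-120907544. It measured 20.3, 24.6 and 21.5 CPM against 8.66, 8.16 and 11.8 CPM, with a log2 fold change of 1.21 (SE 0.28, edgeR adjusted p = 0.0782). Of the 50-base words of its transcripts, 57.6% also occur in another gene, mostly Oas1g, so how reads were split between the copies is uncertain.

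**Figure D2:**
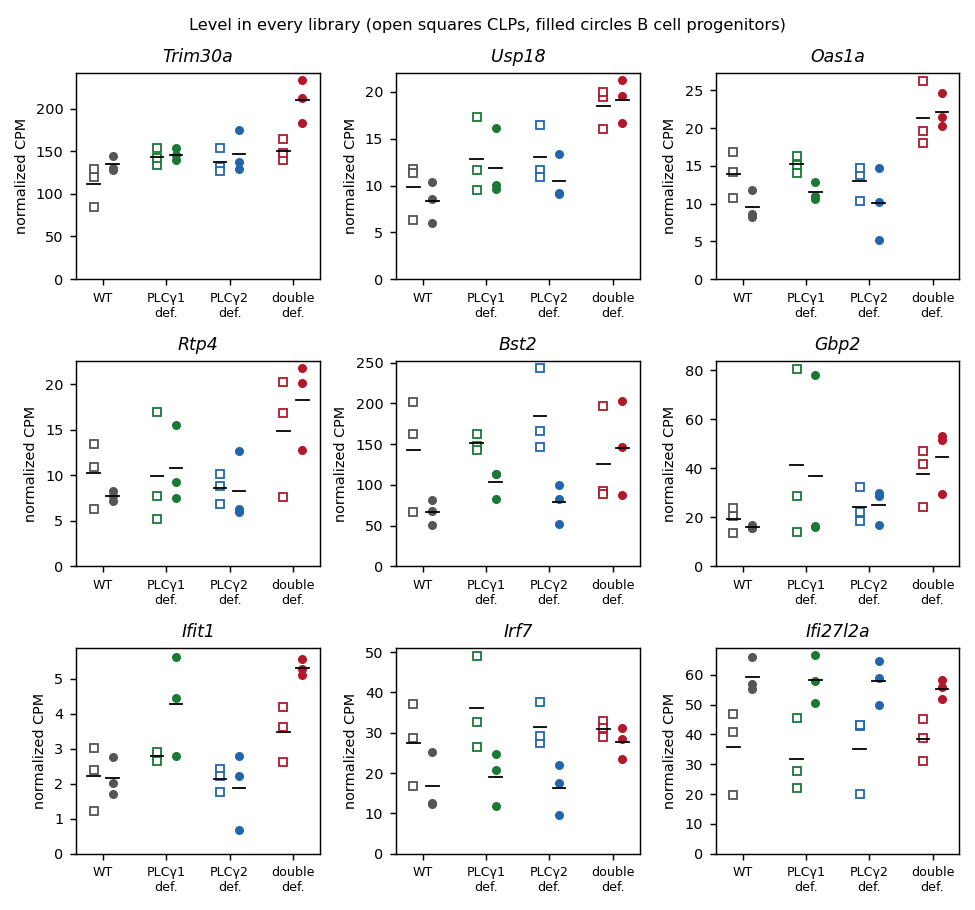
Normalized CPM (vertical axes, from 0) of 9 members in each of the 24 libraries by genotype, with open squares for CLPs, filled circles for B cell progenitors and a bar at the mean of 3. The double-deficient B cell progenitors lie above the WT ones without overlap for Trim30a, Usp18, Oas1a, Rtp4, Bst2, Gbp2 and Ifit1, and overlap them for Irf7 and Ifi27l2a.

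By role, the transcription factors had the lowest median change. Stat2, which carries the signal from the receptor, was 70.1, 77.4 and 67.9 CPM in double-deficient and 62.1, 63.2 and 69.9 CPM in WT B cell progenitors, a log2 fold change of 0.14 (SE 0.12). Irf7, which amplifies interferon production, was 31.1, 23.4 and 28.5 CPM against 12.4, 12.6 and 25.2 CPM (log2 fold change 0.71, SE 0.36). The third WT library reached into the double-deficient range. Irf1, a target of interferon-γ, gave 92.8, 123 and 180 CPM against 80.8, 113 and 151 CPM, with wide overlap. Of the 4 factors, 0 passed an unadjusted p of 0.05, and all 4 fitted values were above 0 with a median log2 fold change of 0.20.

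Sensors and the OAS family lay further from WT. Among 5 sensors of foreign nucleic acid and PKR, 3 had an unadjusted p of at most 0.05, Dhx58 (LGP2), Ifih1 (MDA5) and Zbp1, and the median log2 fold change of the 5 was 0.72. Zbp1, which binds Z-form nucleic acid and can start cell death, was 13.1, 14 and 16.3 CPM in double-deficient and 7.87, 6.34 and 10 CPM in WT cells, without overlap (log2 fold change 0.84, SE 0.28, edgeR adjusted p = 0.247). Zbp1 lies 12.4 Mb from Plcg1 on chromosome 2, and Samhd1, at 3.60 Mb, is nearer still. Of the 5 OAS family genes, 4 had an unadjusted p of at most 0.05, and their median log2 fold change was 0.89. Oas3 was 17, 24.8 and 29.4 CPM against 4.82, 7.52 and 15.7 CPM (log2 fold change 1.35, SE 0.47). Oasl2, an OAS relative, was 13.1, 10.5 and 11.1 CPM against 5.8, 5.26 and 9.43 CPM (log2 fold change 0.74, SE 0.26). In both genes the lowest double-deficient library was only slightly above the highest WT one.

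The IFIT proteins bind foreign RNA ends. Ifit1 was 5.57, 5.11 and 5.30 CPM in double-deficient libraries and 2.75, 1.72 and 2.04 CPM in WT (log2 fold change 1.28, SE 0.45, edgeR adjusted p = 0.26). Ifit3 was 0.656, 2.49 and 2.52 CPM against 1.87, 1.40 and 1.28 CPM, with no separation. Of the 50-base words of Ifit3 transcripts, 51.2% are shared, mostly with Ifit3b, so its count is uncertain. Of 7 genes of GTPase families that attack intracellular microbes, 4 had an unadjusted p of at most 0.05 and all 7 had fitted values above 0. The 7 include Mx1 and Mx2, which are annotated as transcribed pseudogenes. Gbp2, a guanylate-binding protein, had the largest fitted change of the 42 members, from 15.7, 17 and 15.5 CPM to 29.5, 53.1 and 51.5 CPM (log2 fold change 1.49, SE 0.51, edgeR adjusted p = 0.258). Mx1, of the dynamin-like family, gave 24.6, 6.44 and 12.4 CPM against 8.85, 4.30 and 13.5 CPM, with overlapping groups.

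Isg15 itself was 4.26, 4.89 and 8.08 CPM against 3.34, 2.79 and 6.64 CPM, a log2 fold change of 0.43 (SE 0.49), so the modifier overlapped between groups where its protease Usp18 did not. Among 6 enzymes and tetherin, 1 had an unadjusted p of at most 0.05. That gene was Bst2, with 203, 87.2 and 146 CPM against 81.9, 50.7 and 67.7 CPM (log2 fold change 1.11, SE 0.31, edgeR adjusted p = 0.156). Rsad2 varied more between mice than between groups, with 13.1, 6.26 and 45.4 CPM against 2.16, 9.88 and 35.8 CPM. Samhd1, which breaks down nucleotides, was 267, 90.5 and 179 CPM against 158, 167 and 235 CPM. Tap1 and the 3 genes of the PARP and Deltex group had log2 fold changes between 0.23 and 0.45 with no unadjusted p of 0.05 or below, and exons of Parp9 and Dtx3l overlap, so that unstranded reads there are ambiguous. Of the 6 remaining members, Rtp4, Xaf1, Ifi35 and Trim30a had an unadjusted p of at most 0.05. Rtp4, a receptor-transporting protein, was 12.8, 21.8 and 20.1 CPM against 7.18, 7.73 and 8.30 CPM (log2 fold change 1.25, SE 0.33, edgeR adjusted p = 0.137). Ifi27l2a was flat, with 51.8, 58.1 and 56 CPM against 57.1, 55.3 and 65.9 CPM (log2 fold change -0.10, SE 0.14).

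**Figure D3:**
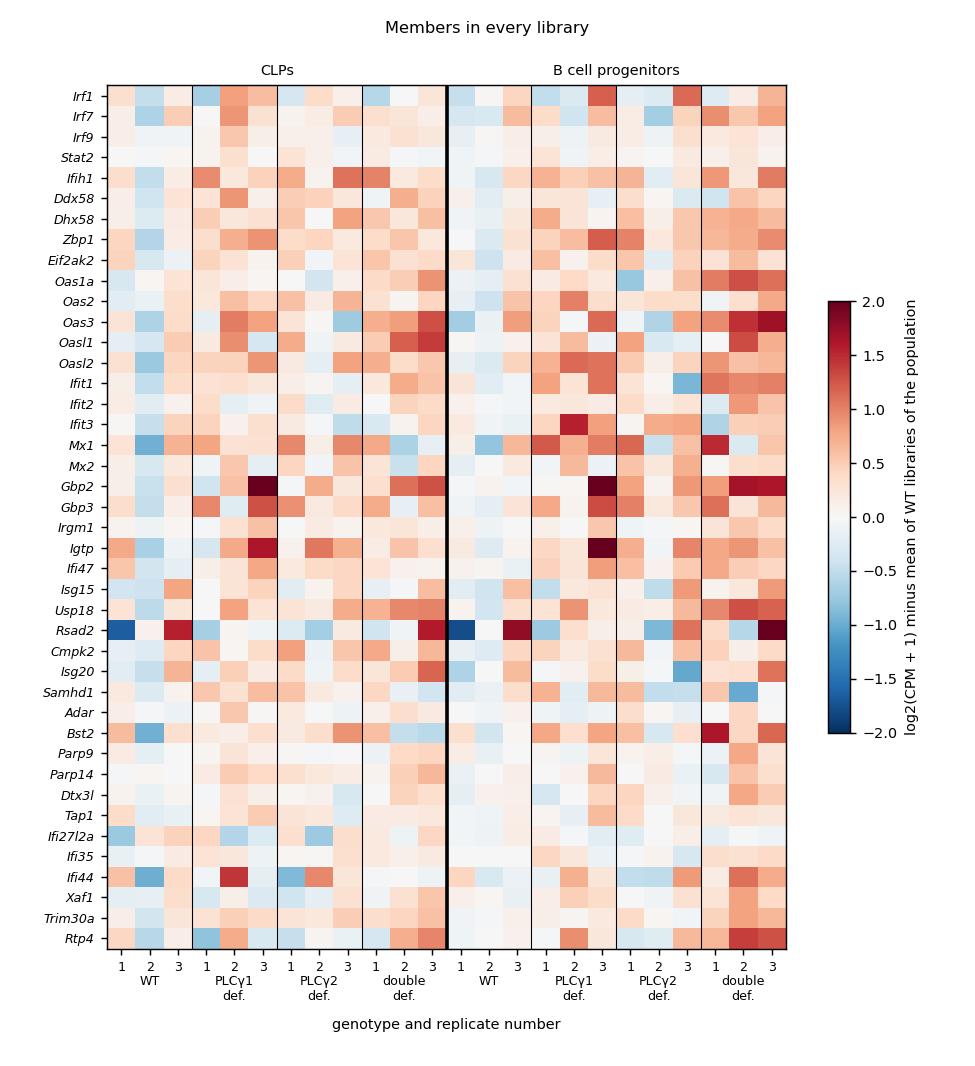
Colour gives log2(CPM + 1) of each member (rows, ordered by role) in each library (columns, by population, genotype and replicate number) minus the mean of the 3 WT libraries of that population. Double-deficient B cell progenitors have 32, 38 and 40 of 42 members above that mean, and the WT ones 16, 9 and 34. PLCγ1-deficient B cell progenitors have 33, 30 and 36, and PLCγ2-deficient ones 33, 21 and 31. The second WT CLP library has 4 of 42. Such counts were not made over all genes.

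Other genes of the pathway were read from fixed lists. Of 62 tested interferon-induced genes outside the set, 0 were called by edgeR, 22 were higher and 0 lower at an unadjusted p of at most 0.05, and 56 had fitted values above 0, with a median log2 fold change of 0.51. Of 11 genes for receptors and their signaling partners, all 11 had fitted values above 0, and Ifnlr1, a receptor chain for type III interferon, was among those with an unadjusted p of at most 0.05 (1.31, SE 0.55). Of 12 genes that sense nucleic acid or induce interferon, Irf5 and Ikbke did. Of 7 negative regulators, 6 had fitted values below 0, but only Socs1, which inhibits JAK kinases, had an unadjusted p of at most 0.05. It was 8.9, 9.1 and 16 CPM in double-deficient against 18, 25.7 and 29.8 CPM in WT libraries (log2 fold change -1.10, SE 0.35, edgeR adjusted p = 0.215). That list does not hold the member Usp18, which also holds back the receptor and had a higher fitted level. Of 20 genes for interferons themselves, only Ifng had enough reads to be tested, and its log2 fold change was 0.03. The 15 of these that encode interferon-α or interferon-β, by symbol, summed to between 0 and 26.0 CPM in the 12 B cell progenitor libraries, with a median of 1.95 CPM, and to between 0.446 and 2.03 CPM in the 12 CLP libraries, with a median of 0.900 CPM. These sums rested on 523 reads in all B cell progenitor libraries and 217 reads in all CLP libraries. Reads that fell on no gene made up 59.9% to 87.3% of the former libraries and 17.9% to 45.2% of the latter. The part of that difference in these sums was not tested.

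Markers of other blood cells moved in the same direction as the members. Of 10 neutrophil and monocyte markers all 10 had fitted values above 0 in double-deficient B cell progenitors, with a median log2 fold change of 1.27, and so had 10 of 10 T and NK cell markers (0.87), 9 of 10 macrophage markers (0.73) and 9 of 10 plasmacytoid dendritic cell markers (0.69). None of these 40 genes was called by edgeR, and 2, 1, 3 and 2 of them were higher at an unadjusted p of at most 0.05. The summed neutrophil and monocyte markers ranged from 2669 to 6819 CPM in double-deficient and from 1428 to 4442 CPM in WT libraries, and the macrophage markers from 149 to 341 CPM against 88 to 228 CPM. The summed plasmacytoid dendritic cell markers ranged from 1038 to 1126 CPM against 1041 to 1286 CPM, with Spib, which B lineage cells also express, lower. No defining marker of these 4 cell types was at 0 in any library. With the mean marker level of a cell type added to the fit as a covariate, the members' median log2 fold change was 0.42 for neutrophil and monocyte, 0.47 for macrophage and 0.40 for plasmacytoid dendritic cell markers. The number of members higher at an unadjusted p of at most 0.05 was then 18, 10 and 10, in place of 19. In the libraries numbered 2 and 3 alone the median was 0.55 and the number 19. This left out the knockout libraries numbered 1, the richest in neutrophil markers, but also the WT library lowest in them. The summed neutrophil and monocyte markers that remained were 2669 and 6348 CPM in double-deficient and 2130 and 4442 CPM in WT libraries. The part of these markers in the result cannot be read from this split. Progenitor markers shifted too. Of 10 CLP markers, 8 had fitted values above 0 and 2 below, from -0.46 (Il7r) to 1.35 (Dntt). Of 10 B lineage markers, 7 were above 0 and 3 below, from -0.80 (Pax5) to 1.22 (Vpreb1). The part of these progenitor markers in the result was not tested. In bulk RNA, more cells of a type and more RNA per cell cannot be told apart.

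In CLPs fewer members stood apart from WT, though a difference between the populations was not shown. edgeR called 0 of the 42 members and 0.0921% of the 15209 genes tested, and DESeq2 also called 0 members. At an unadjusted p of at most 0.05, 6 members were higher, Usp18, Parp14, Trim30a, Oas1a, Oasl1 and Oas3, and 0 lower, against 3.68% of all genes higher and 3.84% lower. Fitted values were above 0 for 36 of the 42, against 45.6% of all genes, with a median log2 fold change of 0.26 against -0.03 over all genes. Every double-deficient library lay above every WT library for 9 members, against 6.27% of all genes, and below for 0, against 7.32%. Usp18 was 16, 19.5 and 20 CPM in double-deficient and 11.7, 6.34 and 11.4 CPM in WT CLPs (log2 fold change 0.88, SE 0.29, edgeR adjusted p = 0.448). Trim30a was 140, 148 and 164 CPM against 120, 84.8 and 129 CPM (0.43, SE 0.16), and Parp14, a mono-ADP-ribosyltransferase, was 82.9, 111 and 126 CPM against 76.8, 81.4 and 78.4 CPM (0.42, SE 0.15). Bst2 overlapped, at 197, 92.7 and 89.2 CPM against 201, 66.3 and 162 CPM. The second WT library was the lowest of the 12 CLP libraries for 22 of the 42 members, and without it 3 members instead of 6 were higher at an unadjusted p of at most 0.05, with a median log2 fold change of 0.21. Without the third double-deficient library that number was 1. Neutrophil and monocyte markers were above 0 in 10 of 10 in this comparison, with a median of 1.09, and macrophage markers in 9 of 10, with a median of 0.52, while plasmacytoid dendritic cell markers were above 0 in 1 of 10, with a median of -0.48. With the neutrophil and monocyte covariate the members' median was 0.21.

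The single-deficient groups were compared with the same WT libraries, which all 3 comparisons share. In B cell progenitors the median log2 fold change of the members was 0.17 in PLCγ2-deficient cells and 0.34 in PLCγ1-deficient cells, beside the 0.53 of double-deficient cells, and fitted values were above 0 for 32, 38 and 40 of the 42. Of all genes, 53.7% were above 0 in PLCγ2-deficient and 55.3% in PLCγ1-deficient cells, with medians of 0.03 and 0.06. Without the filter on low counts the members' medians were 0.14 and 0.30, and those of all genes 0.20 and 0.51. Reads that fell on no gene made up 63.8% to 75.8% of PLCγ2-deficient and 66.5% to 87.3% of PLCγ1-deficient libraries. They made up 59.9% to 71.4% of WT and 60.3% to 63.0% of double-deficient libraries. The part of this in the medians was not tested. edgeR and DESeq2 called 0 members in either single-deficient group, and edgeR called 0.0467% of all genes in PLCγ2-deficient and 0.06% in PLCγ1-deficient cells. At an unadjusted p of at most 0.05, 8 members were higher in PLCγ1-deficient cells, against 7.29% of all genes, and 1 member, Ifi47, in PLCγ2-deficient cells, against 1.82%. No member was lower at that p, against 2.65% of all genes in PLCγ1-deficient and 1.02% in PLCγ2-deficient cells. Every PLCγ1-deficient library lay above every WT one for 11 members, against 8.03% of all genes, and below for 1, Adar, against 11.2%. For PLCγ2-deficient libraries 2 members, Ifit2 and Mx2, lay above, against 4.45%, and 0 below, against 4.73%. Oasl2 led in PLCγ1-deficient cells, with 11.3, 15.7 and 15.2 CPM (log2 fold change 1.06, SE 0.26, edgeR adjusted p = 0.467), followed by Ifi47 (0.55, SE 0.18) and Zbp1 (0.85, SE 0.28). Gbp2 there rested on 1 library, at 16.2, 16.6 and 78.1 CPM. Usp18, Oas1a and Trim30a, which led in double-deficient cells, were 10, 16.1 and 9.58 CPM, then 10.7, 12.8 and 10.9 CPM, then 145, 140 and 153 CPM in PLCγ1-deficient cells. They were 9.17, 9.05 and 13.3 CPM, then 5.18, 10.2 and 14.7 CPM, then 175, 138 and 129 CPM in PLCγ2-deficient cells. Neutrophil and monocyte markers were above 0 in 10 of 10 in both groups, with medians of 0.97 in PLCγ1-deficient and 0.92 in PLCγ2-deficient cells, and T and NK cell markers in 10 of 10 and 9 of 10, with medians of 1.41 and 0.65. Their part in the result was not tested. Leaving out 1 library moved the members' median between 0.26 and 0.45 for PLCγ1-deficient cells, where 8 higher members became 3 without the second WT library. It moved the median between 0.07, without the first PLCγ2-deficient library, and 0.28, without the second, for PLCγ2-deficient cells, and to 0.08 without the second WT library. The smallest p in PLCγ2-deficient cells belonged to Ifi47 (0.43, SE 0.19), Zbp1 (0.63, SE 0.29) and Dhx58 (0.43, SE 0.21).

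In CLPs the medians were 0.15 in PLCγ2-deficient and 0.31 in PLCγ1-deficient cells, beside 0.26 in double-deficient cells. Without the second WT library they were 0.04 and 0.15, and without the third 0.29 and 0.46, and the PLCγ1-deficient median was 0.16 without its second library. Neutrophil and monocyte markers were above 0 in 10 of 10 in both, with medians of 0.90 and 0.99. edgeR and DESeq2 again called 0 members, where edgeR called 0% and 0.00658% of all genes. At an unadjusted p of at most 0.05, 0 members were higher in PLCγ2-deficient CLPs and 3 in PLCγ1-deficient CLPs, Parp14 (0.36, SE 0.15), Zbp1 (0.63, SE 0.26) and Trim30a (0.36, SE 0.16), against 1.53% of all genes in each. The 3 became 0 without the second WT or the third PLCγ1-deficient library, and 9 without the first PLCγ1-deficient library. No member was lower, against 2.39% and 1.32% of all genes. Fitted values were above 0 for 31 of the 42 in PLCγ2-deficient CLPs, against 51.2% of all genes, and for 38 in PLCγ1-deficient CLPs, against 48.1%. The medians over all genes were 0.01 and -0.01. Every library lay above every WT one for 5 members in PLCγ1-deficient CLPs, Dhx58, Oasl2, Parp14, Samhd1 and Trim30a, against 3.17% of all genes, and for 1, Parp14, in PLCγ2-deficient CLPs, against 3.17%. In neither did a member lie below throughout, against 2.84% and 4.58%. In PLCγ2-deficient CLPs the smallest p belonged to Dhx58 (0.47, SE 0.22), Oas2 (0.51, SE 0.25) and Trim30a (0.30, SE 0.16).

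Double-deficient cells were also set against each single-deficient group. Against PLCγ1-deficient B cell progenitors, a comparison of groups that both had high Xist, edgeR called 0 members and 0.213% of all genes, and DESeq2 called 2, Oas1a and Trim30a. DESeq2 called 5.35% of all genes there, so that 2 of 42, or 4.76%, was no larger a share than that of all genes. At an unadjusted p of at most 0.05, 4 members were higher, against 4.13% of all genes, and 0 lower, against 12.5%. They were Trim30a (log2 fold change 0.50, SE 0.14, edgeR adjusted p = 0.167), Oas1a (0.93, SE 0.28), Usp18 (0.67, SE 0.27) and Rtp4 (0.74, SE 0.33), and the median of the 42 was 0.15, with 30 above 0 against 45.6% of all genes. Every double-deficient library lay above every PLCγ1-deficient one for 4 members, Adar, Oas1a, Trim30a and Usp18, against 6.31% of all genes, and below for 0, against 10.5%. Against PLCγ2-deficient B cell progenitors the median was 0.27, with 36 above 0 against 46.1% of all genes, and 12 members lay above throughout, against 5.77%, and 0 below, against 7.65%. There 10 members were higher at an unadjusted p of at most 0.05, against 3.49% of all genes, and 0 lower, against 7.47%, and Oas1a (1.16, SE 0.30), Trim30a (0.49, SE 0.14) and Rtp4 (1.21, SE 0.36) had the smallest p. edgeR called 0 members and 0.153% of all genes, DESeq2 called 1, Oas1a, beside 1.07% of all genes, and edgeR with same-numbered mice blocked called 1, Bst2 (0.85, adjusted p = 0.0447), beside 0.307%.

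In CLPs the medians of the double-deficient cells were -0.01 against PLCγ1-deficient and 0.12 against PLCγ2-deficient cells, and edgeR and DESeq2 called 0 members in both, beside 0.0263% and 0.0526% of all genes called by edgeR. At an unadjusted p of at most 0.05, Samhd1 was lower than in PLCγ1-deficient CLPs (-0.50, SE 0.22), while Oas1a (0.71, SE 0.23) and Oas3 (1.09, SE 0.38) were higher than in PLCγ2-deficient CLPs. No member was higher than in PLCγ1-deficient or lower than in PLCγ2-deficient CLPs. Of all genes 2.32% were higher and 1.97% lower in the first comparison, and 3.52% and 4.02% in the second. Fitted values were above 0 for 20 members against PLCγ1-deficient CLPs, beside 45.1% of all genes, and for 27 against PLCγ2-deficient CLPs, beside 47.8%. Oas1a lay above every PLCγ1-deficient library, as did 4.33% of all genes, and 0 below, beside 4.70%. Ifit1, Irf9, Oas1a and Oas3 lay above every PLCγ2-deficient library, as did 7.32% of all genes, and 0 below, beside 7.04%. Next in order of p were Oas1a (0.48, SE 0.22) and Oasl1 (0.79, SE 0.41) in the first comparison and Dtx3l (0.30, SE 0.15) in the second.

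Both populations of each mouse were then compared, with the mouse as a block. Over the 4 genotypes 4 members were called, where 12.3% of the 17212 genes tested were called. Ifi27l2a was higher in B cell progenitors in 12 of 12 mice (log2 fold change 0.78, SE 0.13, edgeR adjusted p = 0.00116), from 49.8 to 66.7 CPM in B cell progenitors and from 19.8 to 46.9 CPM in CLPs. Ifit3 was higher in 10 of 12 mice (0.97, SE 0.30, edgeR adjusted p = 0.0281), at no more than 6.34 CPM, a call lost without any 1 of 8 of the 12 mice (adjusted p from 0.0541 to 0.0881). Irf7 was lower in B cell progenitors in 12 of 12 mice (-0.72, SE 0.15, edgeR adjusted p = 0.00395), and Bst2 in 10 of 12 (-0.65, SE 0.12, edgeR adjusted p = 0.00152). Markers of plasmacytoid dendritic cells were lower in B cell progenitors too, with 8 of 10 fitted values below 0, 5 of 10 called by edgeR and a median log2 fold change of -0.61. Siglech was -0.51 (SE 0.17) and Cox6a2 -1.08 (SE 0.27). T and NK cell markers were lower throughout, with log2 fold changes from -1.38 (Ncr1) to -0.20 (Gzma). Macrophage markers ran from -0.72 (Cd163) to 0.11 (Adgre1), with Mertk also above 0. Neutrophil and monocyte markers ran from -0.40 (Mpo) to 0.50 (S100a8). The part of all these markers in the result was not tested. By adjusted p alone, without the limit on the fold, 16 members passed, or 38.1%, beside 31.5% of all genes. At an unadjusted p of at most 0.05, 6 members were higher and 16 lower in B cell progenitors, against 21% and 21.3% of all genes. Of all 42, 15 had fitted values above 0 and 27 below, where 55.9% of all genes were above, with a median log2 fold change of -0.14 against 0.07 over all genes. Reads that fell on no gene made up between 59.9% and 87.3% of B cell progenitor libraries and between 17.9% and 45.2% of CLP libraries, and the part of this difference in the results was not tested.

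**Figure D4:**
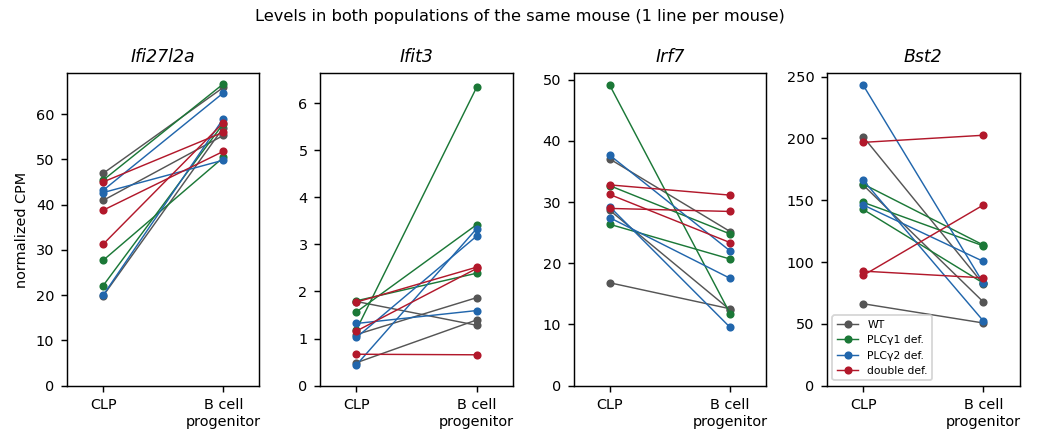
Normalized CPM (vertical axes, from 0) of the 4 members called between populations, with 1 line joining the CLP and B cell progenitor library of each of the 12 mice, coloured by genotype. Ifi27l2a rises and Irf7 falls along all 12 lines, Ifit3 rises along 10, and Bst2 falls along 10, the exceptions being 2 double-deficient mice.

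Bst2 had the smallest p of the 42 for a population difference that changed with genotype. It was lower in B cell progenitors of WT mice (log2 fold change -1.0, SE 0.24, edgeR adjusted p = 0.0329), the 1 member called there beside 3.60% of all genes. In double-deficient mice it was 0.22 (SE 0.23), and 0 members were called by edgeR or DESeq2, beside 3.42% of all genes. There 3 members were higher and 1 lower at an unadjusted p of at most 0.05, against 10.3% and 7.07% of all genes. The smallest p there belonged to Trim30a (0.47, SE 0.14), Adar (-0.32, SE 0.13) and Ifi47 (0.40, SE 0.16). Tested directly, the double-deficient minus the WT difference of Bst2 was 1.22 (SE 0.33) at an unadjusted edgeR p of 0.00292 and an adjusted p of 1.00. That test called 0 of the 17212 genes, DESeq2 called 0 members, and 2 members had an unadjusted p of at most 0.05, Bst2 and Mx1 (0.67, SE 0.26), with Rtp4 next (0.73, SE 0.37). Of all genes 0.883% were higher and 1.19% lower at that p, and 32 of the 42 members had fitted values above 0, against 47.9% of all genes, with a median of 0.22. Whether the members' response differed between populations was thus not shown for any of the 42.

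Averaged over the 42 members, the 3 double-deficient B cell progenitor libraries had mean log2(CPM + 1) of 4.93, 5.08 and 5.20, and the WT ones 4.44, 4.37 and 4.77. PLCγ1-deficient libraries had 4.78, 4.81 and 5.05, and PLCγ2-deficient ones 4.82, 4.46 and 4.85. In CLPs the double-deficient values were 4.93, 4.96 and 5.15 and the WT ones 4.77, 4.33 and 4.94, with overlap. PLCγ1-deficient CLPs had 4.81, 5.09 and 5.02, and PLCγ2-deficient ones 4.90, 4.78 and 4.95. The third double-deficient mouse was the highest of 12 in both populations and the second WT mouse the lowest of 12 in both. Of the 42 members, 23 had their highest B cell progenitor library in the double-deficient group, 16 in PLCγ1-deficient, 3 in PLCγ2-deficient and 0 in WT cells. In 22 the lowest was in WT. The second double-deficient library held 15 of the highest and the second WT library 14 of the lowest. In CLPs the highest library was PLCγ1-deficient for 17 members, double-deficient for 15, PLCγ2-deficient for 8 and WT for 2. Such counts were not made over all genes.

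**Figure D5:**
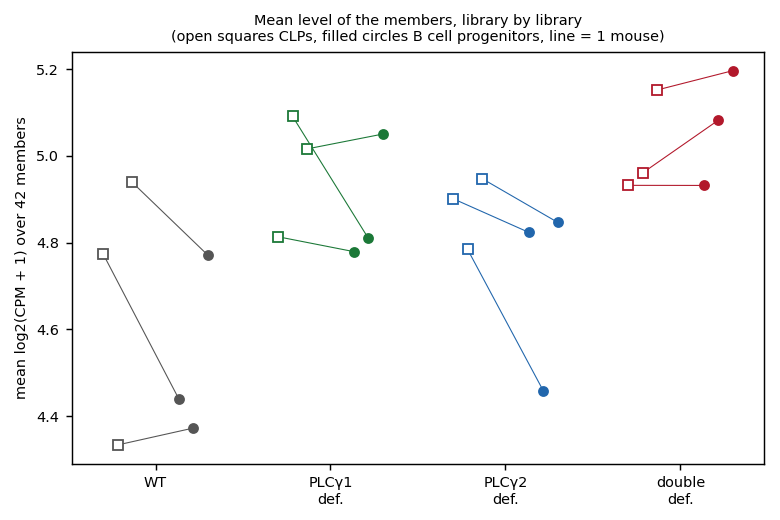
Mean log2(CPM + 1) over the 42 members (vertical axis, not starting at 0) in the CLP (open squares) and B cell progenitor (filled circles) library of each mouse, joined by a line, by genotype. The double-deficient B cell progenitors lie between 4.93 and 5.20 and the WT ones between 4.37 and 4.77, while single-deficient B cell progenitors fall between 4.46 and 5.05.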

How the data were processed

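RNA of sorted CLPs and B cell progenitors was measured by poly(A) RNA-seq in 24 libraries, 3 per genotype and population, with groups and replicate numbers taken from the labels. The authors aligned reads to mm10 (RefSeq) with STAR, version 2.5.0a per the submitters' processing notes, and deposited raw counts per gene symbol; the counting program is not given in the sources used here. Unassigned and ambiguous reads stayed out of library sizes and tests.

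The tests used edgeR 4.0.16 under R 4.3.3 (filterByExpr, TMM, quasi-likelihood test, Benjamini-Hochberg adjustment over all genes tested) in 1 fit per population with its 12 libraries and no covariate, and in a joint fit of 24 libraries with the mouse as block for B cell progenitors against CLPs. SE was derived from the F statistic. Levels are TMM-normalized CPM of the joint fit, and their precision is limited by depth, where 3 reads were 0.0903 to 2.03 CPM; this covers counting error alone. P-values measure the spread between recipients. The tests were first checked on simulated counts with known folds.

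Members and lists were chosen with earlier results of these data known. Named with statistics were the members past the threshold or, below 3, those with the smallest p; 15 members, among them Irf7, Stat2, Isg15 and Bst2, were set to be given by library, and any other member named was chosen after its values were seen. Same-numbered libraries deviated together, with every correlation over 0.1, between double- and PLCγ2-deficient libraries of both populations (0.207 to 0.535) and between PLCγ1-deficient and double-deficient CLPs (0.37 to 0.645), but not between any other pair that was compared. Exon lengths and shared 50-base words came from GENCODE M21, positions and promoters from RefSeq on GRCm38. Alternatives were RLE size factors, no filter, adjusted p alone, DESeq2 1.42.0, the replicate block, 2 groups alone, thinned counts and each library left out; marker covariates and libraries 2 and 3 alone were added after seeing the data.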

Additional observations from a re-analysis of the deposited data

How the results depend on the processing

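Of the comparisons of genotypes, those of double-deficient with WT, PLCγ1-deficient and PLCγ2-deficient B cell progenitors gained called members under an alternative, and all such members were higher. Against WT, 0 members became 1 with RLE size factors (Trim30a), 4 with both groups fitted alone (Gbp2, Oas1a, Rtp4, Trim30a), 5 with DESeq2 and 6 with the replicate block (Bst2, Oas1a, Oas3, Rtp4, Trim30a, Usp18). Calls over all genes rose as well, from 134 to 144, 238, 444 and 550. With each library left out the count was 0 to 1, the 1 being Trim30a without the first double-deficient library, which had the fewest reads of its group. Against PLCγ1-deficient cells DESeq2 called 2 members, and against PLCγ2-deficient cells DESeq2 and the replicate block called 1 each. The cause of these differences was not tested, and the replicate block changed no other count of called members between genotypes. With the replicate block the number of members higher at an unadjusted p of at most 0.05 went from 0 to 6 and from 3 to 8 in PLCγ2- and PLCγ1-deficient CLPs, from 6 to 10 in double-deficient CLPs and from 1 to 4 in PLCγ2-deficient B cell progenitors, all against WT, and from 4 to 7 in double-deficient against PLCγ1-deficient B cell progenitors. The members' median log2 fold change for double-deficient against WT B cell progenitors ranged from 0.40 to 0.74 over the 18 settings, with 37 to 42 members above 0, and in CLPs from 0.21 to 0.42. The number higher at an unadjusted p of at most 0.05 was 11 to 20 in B cell progenitors and 1 to 9 in CLPs when a library was left out. Bst2 in B cell progenitors against CLPs of WT mice, 1 call, became 0 without the block for the mouse ("no replicate block"), and 0 to 1 with a mouse left out, 0 without the first or the third. Over the 4 genotypes, 4 calls became 16 by adjusted p alone, by construction, and 3 to 6 with a mouse left out. Ifit3 was then lost without any 1 of 8 mice, with adjusted p from 0.0541 to 0.0881. Thinned to the smallest library, 39 members in B cell progenitors and 41 in CLPs remained testable, and 0 were called. The settings that added marker covariates or kept libraries 2 and 3 were chosen after seeing the data and called 0 members.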
